A study of Homo sapiens with 6 samples.

Results

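Cholesterol synthesis was followed through 7 genes, SREBF2, INSIG1, HMGCS1, IDI1, FDFT1, SQLE and LSS, which were taken by name from the 34644 gene names measured in irradiated HK-2 cells. HK-2 is a single immortalized cell line derived from the epithelium of the human proximal tubule. Cells of the 3 IR+NC-LV libraries carried a negative control lentivirus and cells of the 3 IR+PR-LV libraries carried a lentivirus for PRDM16, a transcriptional regulator of the PRDM family. All cells had been selected with puromycin after infection, irradiated with 8 Gy of X-rays and harvested at day 7, so that irradiation, virus and selection were common to both groups and no unirradiated library entered the comparison. The 7 names corresponded to 9 of 38648 listed rows, because FDFT1 and LSS were each listed on a chromosome and again on a scaffold. Such a scaffold is a separate sequence holding a second version of the same region of the reference genome.

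Cells make cholesterol from acetyl-CoA through mevalonate, farnesyl diphosphate, squalene and lanosterol. SREBP2, the protein encoded by SREBF2, is held in the membrane of the endoplasmic reticulum and is carried by SCAP to the Golgi when sterols are low, where proteases release the part that enters the nucleus and switches on the genes of this pathway. INSIG1 retains the SCAP and SREBP2 complex in the endoplasmic reticulum when sterols are plentiful. Targets of SREBP2 therefore tend to be regulated as a group, and their messenger RNA is often read as a gauge of how sterol-replete a cell is.

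The total count per library lay between 13407074 and 28540041, with the lowest in IR+NC-LV replicate 3. PRDM16 was counted 2, 0 and 1 times under IR+NC-LV and 14, 10 and 8 times under IR+PR-LV, so the groups did not overlap and differed in the direction of their labels, at low counts. Of 8 proximal tubule markers, 2 reached a mean of 1 TPM (a level per exon length that can be compared between genes) in both groups, namely AQP1 and GGT1. The defining markers LRP2 and SLC22A6 had at most 1 count in a library. Of 5 epithelial markers, 4 reached a mean of 1 TPM in both groups, namely KRT8, KRT18, KRT19 and EPCAM, and the remaining marker was under 1 TPM in every library. Among 5 markers of other cell types, only COL1A1 reached a mean of 1 TPM in both groups, at 10.6 TPM in IR+NC-LV and 10.4 TPM in IR+PR-LV. The libraries are named cell 1 to 3 in each group and nothing states that they came from separate cultures, so p-values measure the spread between these samples, which may be technical.

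None of the 7 genes passed the test between the groups. With edgeR's quasi-likelihood test and Benjamini-Hochberg adjustment over all 15340 rows tested, 0 of the 9 rows had an adjusted p under 0.05, against 0.0652% of all rows. DESeq2 also called 0 of the 9 rows, against 168 rows of the whole series. At an unadjusted p under 0.05, 1 of the 9 rows was called, the scaffold copy of FDFT1, against 10.5% of all rows. The fitted log2 fold change of IR+PR-LV over IR+NC-LV was above 0 for 9 of the 9 rows, against 51.1% of all rows. FDFT1 and LSS each entered as 2 of these rows. By mean TPM, SREBF2 (22.8 against 23.0) and INSIG1 (122.0 against 122.6) were slightly lower in IR+PR-LV than in IR+NC-LV. The other genes, with copies summed, were higher in IR+PR-LV by mean TPM. The median log2 fold change was 0.071 over the 7 genes, each taken by its copy with the most counts, and 0.0044 over all rows tested. With 1 library or another left out, 6 of the 9 rows were below 0 at least once. In none of the 9 rows were the libraries of the groups separate, against 17.0% of all rows. In bulk RNA, fewer cells of a type and less RNA per cell cannot be told apart.

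SREBF2 lies on chromosome 22, at 41833105 to 41907308 on the plus strand of hg38, with 7402 exonic bases. INSIG1 lies on chromosome 7 at 155297878 to 155310235 on the plus strand, and HMGCS1 on chromosome 5 at 43287470 to 43313477 on the minus strand. The bases upstream of these 3 genes are printed because SREBP2 reads such stretches together with the factors NF-Y and SP1. They come from RefSeq (GRCh38.p14), run 5′ to 3′ on the strand of the gene and cover chr22:41832855-41833104 for SREBF2, chr7:155297628-155297877 for INSIG1 and chr5:43313478-43313662 for HMGCS1. Capitals mark the sterol regulatory element (SRE) core CACCCCA, its relaxed form CACNCCA and the NF-Y box CCAAT, each on either strand.
SREBF2: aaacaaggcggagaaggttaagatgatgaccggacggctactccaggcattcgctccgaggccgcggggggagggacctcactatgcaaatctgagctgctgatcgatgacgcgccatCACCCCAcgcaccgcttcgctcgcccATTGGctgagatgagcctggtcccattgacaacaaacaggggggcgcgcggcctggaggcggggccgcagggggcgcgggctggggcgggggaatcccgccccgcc
INSIG1: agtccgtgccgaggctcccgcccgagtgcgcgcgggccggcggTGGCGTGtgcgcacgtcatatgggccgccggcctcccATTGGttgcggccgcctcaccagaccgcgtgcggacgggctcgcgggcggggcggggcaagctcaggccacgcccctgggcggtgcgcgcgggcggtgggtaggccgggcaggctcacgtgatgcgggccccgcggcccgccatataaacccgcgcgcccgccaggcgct
HMGCS1: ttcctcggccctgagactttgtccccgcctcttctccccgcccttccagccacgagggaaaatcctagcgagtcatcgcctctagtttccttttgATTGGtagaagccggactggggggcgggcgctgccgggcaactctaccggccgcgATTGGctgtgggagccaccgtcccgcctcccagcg

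In SREBF2 the SRE core stood 132 to 126 bases before the start and the NF-Y box, on the opposite strand, at 106 to 102 bases. In INSIG1 the relaxed core stood on the opposite strand at 207 to 201 bases, with the NF-Y box at 170 to 166 bases and an E-box, CACGTG, at 55 to 50 bases. HMGCS1 held NF-Y boxes at 155 to 151 and 100 to 96 bases before its annotated start at 43313412, and neither form of the SRE core.

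The promoter table covered 5 of the 7 genes (SREBF2, INSIG1, HMGCS1, IDI1 and LSS) through 8 annotated starts, of which 3 belonged to IDI1 and 2 to HMGCS1. In the 250 bases before the start, searched on both strands, an NF-Y box was found at 6 of the 8 starts, against 32.0% of 35116 promoters. By gene, where a match at any start counted, it was found in 5 of the 5, a count that the share of promoters does not match. The SP1 box GGGCGG was found at 8 of the 8 starts, against 42.6% of promoters. The SRE core was found at 1 start, against 7.00% of promoters, and the relaxed core, which includes it, at 3 starts, in SREBF2, INSIG1 and IDI1, against 14.7%. The E-box was found at 1 start, against 6.34%. These matches describe letters in a window, windows of 1 gene can share bases, and no binding was measured in these libraries.

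SREBF2, the regulator of the pathway, had close mean levels in both groups. Its level was 22.6, 23.0 and 23.2 TPM with NC-LV (IR+NC-LV, replicates 1 to 3) and 24.9, 23.0 and 20.6 TPM with PR-LV (IR+PR-LV, in the same order). The IR+PR-LV libraries straddled the narrow range of the controls, with the highest and the lowest of the 6 values among them. The mean was 23.0 ± 0.326 TPM in IR+NC-LV and 22.8 ± 2.17 TPM in IR+PR-LV (SD, n = 3 each). IR+PR-LV differed from IR+NC-LV by a fitted log2 fold change of 0.031 (SE 0.087, edgeR adjusted p = 0.921), with a 95% interval in linear fold from 0.892 to 1.17. On the opposite strand, SREBF2-AS1 shares 9.88% of the exonic bases of SREBF2 and SHISA8 shares 17.0%. Both were counted at most 5 times in a library, against 686 to 1498 counts for SREBF2, and whether the counting used strand is not given in the sources used here.

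INSIG1, which holds SREBP2 back and is itself one of its targets, was among the most abundant of the 7 genes. Its level was 127, 128 and 113 TPM with NC-LV and 112, 125 and 129 TPM with PR-LV. Each group held 1 low library, replicate 3 of IR+NC-LV and replicate 1 of IR+PR-LV, and the ranges nearly coincided. The edgeR log2 fold change of INSIG1 was 0.027 (SE 0.090, adjusted p = 0.933), with an interval in linear fold from 0.885 to 1.17. It was -0.058 without IR+NC-LV replicate 3.

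HMGCS1 makes HMG-CoA, the compound from which mevalonate is formed. Its level was 55.4, 57.3 and 55.8 TPM with NC-LV and 50.8, 57.5 and 61.6 TPM with PR-LV. As with SREBF2, the IR+PR-LV values lay on both sides of the controls, but here replicate 3 was the highest and replicate 1 the lowest. The mean was 56.2 ± 0.988 TPM in IR+NC-LV and 56.6 ± 5.42 TPM in IR+PR-LV (SD, n = 3 each). For HMGCS1 the fitted log2 fold change was 0.049 (SE 0.080, edgeR adjusted p = 0.861), with an interval in linear fold from 0.913 to 1.17.

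IDI1 converts isopentenyl diphosphate to dimethylallyl diphosphate, the pair of units from which all isoprenoids are built. It lies on chromosome 10 at 1039152 to 1056704 on the minus strand. Its level was 34.0, 32.2 and 32.0 TPM with NC-LV and 31.1, 37.2 and 38.9 TPM with PR-LV. IR+PR-LV replicates 2 and 3 stood above every control and replicate 1 below every control. For IDI1 the fitted log2 fold change was 0.17 (SE 0.093, edgeR adjusted p = 0.574), with an interval in linear fold from 0.970 to 1.30, and it was 0.11 to 0.25 with 1 library left out. On the opposite strand WDR37 shares 4.90% of the exonic bases of IDI1 and was counted 312 to 581 times, and IDI2-AS1 shares 4.18% and was counted 7 to 19 times.

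SQLE is squalene epoxidase, which adds the first oxygen to squalene and is a rate-limiting step of the sterol part of the pathway. It was listed at 124998505 to 125022283 on the plus strand of chromosome 8. Its level was 133, 132 and 118 TPM with NC-LV and 130, 131 and 132 TPM with PR-LV. The IR+PR-LV libraries agreed closely with each other and with IR+NC-LV replicates 1 and 2, and only IR+NC-LV replicate 3 stood lower. The log2 fold change of SQLE was 0.071 (SE 0.081, edgeR adjusted p = 0.796), with an interval in linear fold from 0.926 to 1.19. Without IR+NC-LV replicate 3 it was -0.013.

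Over the 5 genes listed once, the 95% intervals of the log2 fold change lay between -0.18 and 0.37. Their adjusted p-values from edgeR lay between 0.574 and 0.933.

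FDFT1 is squalene synthase, which joins farnesyl diphosphate units into squalene and commits them to sterols. It was listed on chromosome 8 at 11795582 to 11839309 and again on a scaffold. The scaffold copy took between 83.9% and 96.0% of its counts in the 6 libraries. The scaffold copy had 395, 435 and 263 counts with NC-LV and 643, 838 and 417 counts with PR-LV. In CPM (counts scaled by library size after TMM, the trimmed mean of M-values normalization) this was 23.5, 20.7 and 18.9 against 38.3, 30.0 and 22.7, where the lowest IR+PR-LV library fell within the range of the controls. The fitted log2 fold change of the scaffold copy was 0.52 (SE 0.17, edgeR adjusted p = 0.372, unadjusted p = 0.0141). That of the chromosome copy, with 21 to 80 counts a library, was 0.58 (SE 0.33, edgeR adjusted p = 0.586), and it was 0.16 without IR+PR-LV replicate 3 and 0.84 without IR+PR-LV replicate 1.

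Summing both copies, a step chosen after seeing the data, left each library of IR+PR-LV above each library of IR+NC-LV. Of all rows tested, taken singly, 17.0% had groups that were separate. The summed level of FDFT1 was 19.9, 17.2 and 17.0 TPM with NC-LV and 30.6, 24.7 and 21.0 TPM with PR-LV. The mean was 18.0 ± 1.62 TPM in IR+NC-LV and 25.4 ± 4.83 TPM in IR+PR-LV (SD, n = 3 each). The fitted fold was 1.44, with a 95% interval from 1.16 to 1.80, a log2 fold change of 0.53 (SE 0.14) and an unadjusted p of 0.0041 by edgeR. It did not pass the adjusted threshold (edgeR adjusted p = 0.246), where 10.5% of the 15054 summed genes had an unadjusted p under 0.05 and 0.0797% an adjusted p under 0.05. DESeq2 on the summed counts gave a log2 fold change of 0.54 with an adjusted p of 0.0247. Without the filter on low counts, edgeR gave 0.54 with an adjusted p of 0.000509. The call for FDFT1 thus depended on the tool and on the filter. On single rows these settings called more rows of the whole series, 168 by DESeq2 and 342 by edgeR without the filter, against 10 in the main fit. How many summed genes these settings called is not given here. The log2 fold change was 0.38 without IR+PR-LV replicate 1 and 0.65 without IR+PR-LV replicate 3, the lowest and highest with 1 library left out, with edgeR adjusted p from 0.188 to 0.638. Its log2 fold change was the largest of the 7 genes with copies summed, and its difference from the other 6 was not tested.

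LSS, lanosterol synthase, folds oxidosqualene into rings to form lanosterol, the first sterol. It was listed on chromosome 21 at 46188446 to 46228774 and again on an alternate scaffold. The summed level was 10.1, 8.12 and 11.9 TPM with NC-LV and 12.3, 13.6 and 9.36 TPM with PR-LV. IR+PR-LV replicate 3 lay within the range of the controls and the other two lay above it. The fitted log2 fold change of the sum was 0.28 (SE 0.16, edgeR adjusted p = 0.573), and it was 0.16 without IR+PR-LV replicate 2 and 0.43 without IR+PR-LV replicate 3. That of the chromosome copy was 0.23 (SE 0.25, edgeR adjusted p = 0.790) and that of the scaffold copy was 0.36 (SE 0.43, edgeR adjusted p = 0.807).

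The split of LSS counts between its copies moved from library to library. The scaffold copy took 39.3%, 21.2% and 51.8% of LSS counts with NC-LV and 19.9%, 53.1% and 48.4% with PR-LV. The exact binomial 95% interval for IR+NC-LV replicate 2 was 16.4% to 26.6% and that for IR+NC-LV replicate 3 was 45.0% to 58.6%, so replicates of a group differed beyond counting error. For FDFT1 the same share was 91.6%, 91.2% and 92.6% with NC-LV and 96.0%, 92.2% and 83.9% with PR-LV. How reads fitting both copies were assigned is not given in the sources used here, so values of single copies are uncertain. If such reads were left uncounted, the summed levels of FDFT1 and LSS are too low.

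**Figure D1:**
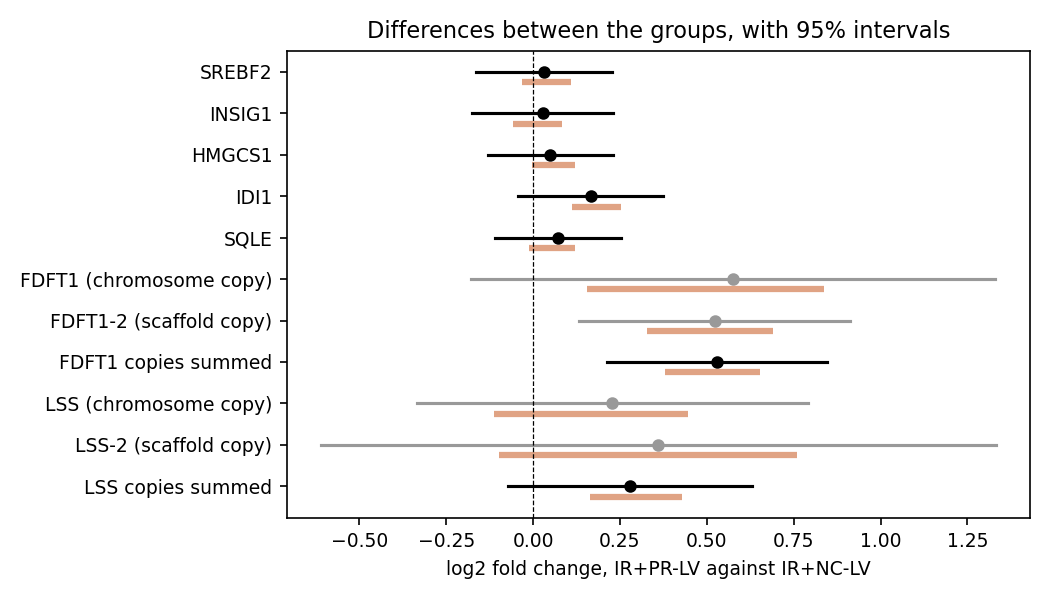
Log2 fold change of IR+PR-LV over IR+NC-LV for the 7 genes by edgeR, with 95% intervals, single copies in grey and the range with 1 library left out in orange. Estimates are above 0 throughout, intervals of the 5 genes listed once include 0, and the sum of the FDFT1 copies lies at 0.53.

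Level per length differed widely between the 7 genes, and the order was the same in both groups except for SREBF2 and FDFT1. The means in IR+NC-LV were 128 TPM for SQLE, 123 for INSIG1, 56.2 for HMGCS1, 32.7 for IDI1, 23.0 for SREBF2, 18.0 for FDFT1 and 10.1 for LSS. SQLE and INSIG1 were neighbours whose ranges over the 6 libraries overlapped, although SQLE was the higher in each of the 6. SREBF2 was above FDFT1 in all 3 IR+NC-LV libraries and below it in all 3 IR+PR-LV libraries, where the means were 22.8 TPM for SREBF2 and 25.4 TPM for FDFT1. Every other pair of neighbours was separate in all 6 libraries. Among 27403 genes with a count, the percentile by mean TPM ran from 67.6 for LSS to 94.4 for SQLE. The order of the IR+NC-LV means was the same with CPM in place of TPM and with any 1 control library left out. FDFT1 and LSS entered with copies summed, and how reads fitting both copies were counted is not given. Their levels, places and percentiles could therefore be too low, and the order of SREBF2 and FDFT1 is uncertain.

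Across the 6 libraries the genes did not follow a single pattern. HMGCS1 and IDI1 moved together, with a Pearson r of 0.87 on log2 CPM, as did HMGCS1 and INSIG1 (r = 0.85) and SQLE and INSIG1 (r = 0.85). SREBF2 ran against HMGCS1 (r = -0.48) and IDI1 (r = -0.34) and along with FDFT1 (r = 0.63). The points are 6 libraries with shared depth and normalization, and these values are descriptions. IR+NC-LV replicate 3, the shallowest library, was the lowest of the 6 in CPM for SQLE, INSIG1, IDI1 and FDFT1. The part of depth in this was not tested.

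None of the other listed enzymes of the pathway passed the test either. The lists used here do not hold every gene of the pathway, and a gene with several copies entered by the copy with the most counts. Of 8 enzymes of the mevalonate and isoprenoid steps, 4 were above 0 and 4 below 0, with a median log2 fold change of -0.0056, against 0.0044 over all rows tested. The lowest was MVK, mevalonate kinase, at -0.30 (SE 0.13, edgeR adjusted p = 0.482), and the highest was IDI1. Of 13 enzymes of the sterol steps, 10 were above 0, against 51.1% of all rows, and 3 below 0, with a median of 0.042. The lowest was TM7SF2, a sterol reductase, at -0.73 (SE 0.38) from a mean of 2.52 TPM in IR+NC-LV, and the highest was the scaffold copy of FDFT1. By edgeR 0 of the 21 enzymes passed the adjusted threshold, against 0.0652% of all rows. At an unadjusted p under 0.05 by edgeR, 1 was called, FDFT1, against 10.5% of all rows. DESeq2 also called 0 of the 21 on single rows, against 168 rows of the whole series. The summed copies of FDFT1 had a DESeq2 adjusted p of 0.0247.

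Genes that process SREBPs lay slightly above 0. All 12 were above 0, against 51.1% of all rows, with a median log2 fold change of 0.083 and a range from 0.027 to 0.16. With 1 library or another left out, SREBF1, SREBF2, SCAP, INSIG1, RNF139 and ERLIN1 were below 0 at least once. Their lowest values ran from -0.058 for INSIG1 to -0.0018 for ERLIN1, and the rest of the 12 stayed above 0. By edgeR or by DESeq2, 0 of the 12 passed the adjusted threshold, against 10 and 168 rows of the whole series. The highest was MBTPS1, the site-1 protease that makes the first cut in SREBP, at 0.16 (SE 0.058, edgeR adjusted p = 0.397), and it was 1 of 3 of the 12 whose libraries were separate between groups, against 17.0% of all rows. The lowest were INSIG1 and ERLIN1, a protein of the endoplasmic reticulum that takes part in sterol-regulated degradation, both at 0.027. The 4 listed sterol transport genes were all below 0, with a median of -0.069, from TMEM97 at -0.13 to NPC1, the lysosomal cholesterol exporter, at -0.016. None of the 4 had an unadjusted p under 0.05 by edgeR.

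The fatty acid arm, which is driven mainly by SREBP1, was examined beside the cholesterol genes. Of 10 genes, 8 were above 0, against 51.1% of all rows, and 2 below 0, with a median log2 fold change of 0.098. By edgeR or by DESeq2, 0 of the 10 passed the adjusted threshold, against 10 and 168 rows of the whole series. ELOVL6, which lengthens palmitate, was at 0.31 (SE 0.076, edgeR adjusted p = 0.224), with 9.39 ± 0.254 TPM in IR+NC-LV and 11.3 ± 0.243 TPM in IR+PR-LV (SD, n = 3 each). SCD, the desaturase that makes oleate, was at 0.14 (SE 0.056, edgeR adjusted p = 0.428). Libraries of the groups were separate for 3 of the 10, against 17.0% of all rows. The lowest was ACSS2, which makes acetyl-CoA from acetate, at -0.12. The highest was ACACA, acetyl-CoA carboxylase, at 0.54 with an SE of 0.52 for its copy with the most counts. With its 2 listed copies summed, ACACA was at 5.48 ± 2.33 TPM in IR+NC-LV and 6.47 ± 1.45 TPM in IR+PR-LV (SD, n = 3 each). Of 4 tested genes of the LXR arm, which answers sterol excess, 1 was above 0 and 3 below 0, from MYLIP at -0.26 to NR1H2 at 0.035.

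Over all lists, 63 of 68 genes had enough counts to be tested, with 42 above 0 and 21 below 0 and a median log2 fold change of 0.049. By edgeR 0 of the 63 passed the adjusted threshold, against 10 rows of the whole series, with a smallest adjusted p of 0.224. By DESeq2 on single rows 0 of the 63 passed, against 168 rows of the whole series. At an unadjusted p under 0.05, 6 were called, all above 0, and 9 of the 63 had libraries that were separate between groups. Read against 10.5% and 17.0% of all rows, neither share stood above the background.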

How the data were processed

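Poly(A)-selected RNA of 6 HK-2 libraries was sequenced by the study. The authors deposited raw read counts per gene, with TPM and FPKM values derived from them by gene length and total, in 1 table per library. The submitters' processing notes name CASAVA, featureCounts 2.0.1, DESeq2 1.16.1 and hg38. The aligner, annotation release and strand setting are not given in the sources used here. Samples were grouped by their labels. No per-sample column was left unused apart from FPKM, which was not used.

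Rows passing filterByExpr (minimum count 10, minimum total count 15) were normalized by TMM (factors 0.981 to 1.04) and compared with edgeR 4.0.16 (glmQLFit and glmQLFTest, R 4.3.3), without covariates, with Benjamini-Hochberg adjustment over 15340 rows and a threshold of 0.05. Log2 CPM used a prior count of 2. Total counts of 13407074 to 28540041 set the precision, and intervals and limits cover counting error only where they are binomial. The procedure was tested on simulated counts. Deposited TPM served for levels between genes.

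Each result was recomputed with DESeq2 1.42.0, with RLE or upper-quartile scaling, with other count filters and thresholds, with a block for the replicate number, without 1 library at a time, and with copies summed. The last, for all genes, and the repeats of the other settings on summed copies were chosen after seeing the data. Same-numbered libraries did not deviate together (r = -0.0088, 0.05 and 0.07), so numbers were not taken as pairs.

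The 7 genes and the lists were chosen with earlier results of these data known. Named genes were the 7, PRDM16, the list genes with an unadjusted p under 0.05 or the largest change either way in their list, and the 8 genes most like the mean profile of the 7. Beyond this rule, SREBF1, SCAP, RNF139, ERLIN1, SPRING1, the cell type markers and genes sharing exonic bases with the 7 were named. Some genes are not reported here. Motifs and sequences came from RefSeq (GRCh38.p14).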

Additional observations from a re-analysis of the deposited data

How the results depend on the processing

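Of 115 values of the 7 genes in their 9 rows under the alternatives, 107 kept their direction and side of the threshold, 7 reversed, each with 1 library left out, and 1 passed the threshold, the scaffold copy of FDFT1 without the filter (edgeR adjusted p = 0.00831). With 1 library left out, the log2 fold change ran from -0.033 to 0.11 for SREBF2, from -0.0044 to 0.12 for HMGCS1, from -0.013 to 0.12 for SQLE, from -0.058 to 0.082 for INSIG1, from -0.11 to 0.44 for the chromosome copy of LSS and from -0.097 to 0.76 for its scaffold copy. The libraries whose absence gave values below 0 were IR+PR-LV replicate 1 for SREBF2 and LSS, replicate 2 for the LSS scaffold copy and replicate 3 for HMGCS1, IR+NC-LV replicate 3 for SQLE, and for INSIG1 that same library or replicate 3 of IR+PR-LV (-0.0054). The median over the 7 genes, each by its copy with the most counts, was 0.071, and it was 0.011 to 0.12 with 1 library left out. Rows past the adjusted threshold numbered 10, and 168 with DESeq2, 342 without the filter, 1 at a threshold of 0.01, 58 at 0.1, and 1 to 28 with 1 library left out (1 without either NC-LV replicate 1 or PR-LV replicate 3, 28 without IR+NC-LV replicate 2, 16 without IR+NC-LV replicate 3). The causes were not tested. List genes with an unadjusted p under 0.05 numbered 6, and 3 to 14 with 1 library left out, the lowest without NC-LV replicate 1 and the highest without PR-LV replicate 1. For the summed copies of FDFT1, with edgeR adjusted p = 0.246, the adjusted p was 0.000509 by edgeR without the filter and 0.0247 by DESeq2. With the replicate number as a block, 3 rows passed and the summed copies of FDFT1 had a log2 fold change of 0.52 (edgeR adjusted p = 0.0812). Libraries shared only a number, and not every library correlated best with its own number. Depth limits the chromosome copy of FDFT1, at 21 to 80 counts.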

Other observations

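Branches that draw on the same precursors were also tested. Of 8 tested genes of isoprenoid branches (dolichol, ubiquinone and prenylation), 4 were above 0 and 4 below 0, with a median log2 fold change of 0.017. NUS1, a subunit of the enzyme that starts dolichol synthesis, was at 0.16 (SE 0.064, edgeR adjusted p = 0.439), PDSS2, which builds the ubiquinone side chain, was the highest at 0.19, and PGGT1B, which attaches geranylgeranyl groups to proteins, was the lowest at -0.055. Of 4 tested genes of sterol storage and oxysterols, 3 were above 0 and 1, CYP27A1, was below 0 at -0.14. LIPA, the lysosomal lipase that frees cholesterol from its esters, was at 0.27 (SE 0.079, edgeR adjusted p = 0.307). Its level was 155 ± 3.90 TPM in IR+NC-LV and 182 ± 15.9 TPM in IR+PR-LV (SD, n = 3 each). It was 1 of the 4 whose libraries were separate between groups, against 17.0% of all rows. Neither list had a gene past the adjusted threshold by edgeR on single rows or by DESeq2, against 10 and 168 rows of the whole series.

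The 8 genes whose log2 CPM was most like the mean profile of the 7 genes over the 6 libraries, among 9825 genes of mean CPM of at least 10, were TFDP1, TPM3, GTF2E2, BTF3, NCAPG2, DYNC1I2, RPL12 and JAK1, with a Pearson r from 0.98 to 0.99. None of them is in the lists of cholesterol genes. The list gene most like the profile was SPRING1, a partner of SREBP processing, at rank 110 (r = 0.94). Of 50 list genes, 37 had an r above 0, against 57.5% of all genes. The mean profile, in scaled log2 CPM, was -1.11 in IR+NC-LV replicate 3, the shallowest library, and -0.023 to 0.75 in the others. Likeness to it therefore rests largely on that library. The 7 genes did not all follow it, as HMGCS1 and LSS ran against each other (r = -0.43). With 6 libraries that share depth and normalization these are descriptions.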
